A study of Mus musculus with 9 samples.

Results

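Collagen chains are the protein subunits of the collagens, the main structural proteins of the extracellular matrix. The chains were taken as every gene of the deposited counts whose mouse symbol is Col, a number, the letter a and a number, which gave 44 of the 18755 genes. The number of the collagen type sorted them into 11 fibrillar chains (types I, II, III, V, XI, XXIV and XXVII), 9 network and basement membrane chains (types IV, VIII and X), 9 FACIT chains, which sit on the surface of fibrils (types IX, XII, XIV, XVI and XIX to XXII), and 15 others.

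The counts came from primary tumors of 4T1 cells, a metastatic mammary carcinoma line of BALB/c origin, of which 1000000 had been injected into the mammary fat pad of female BALB/c mice aged 6 to 10 weeks. From day 15 after injection, 6 mice received BI 853520 (BI), an inhibitor of focal adhesion kinase (FAK), by mouth at 50 mg/kg for 5 days, and 3 mice received the 0.5% Natrosol vehicle alone (vehicle tumors 1 to 3 and BI tumors 4 to 9). All groups thus shared the cell line, the strain, the site and the days of dosing, and each tumor gave 1 library of messenger RNA from a frozen piece of tumor. A piece holds carcinoma cells together with the mouse's own stroma, so that fewer cells of a type and less RNA per cell cannot be told apart. Total counts on genes lay between 21727879 and 33850245 in the vehicle tumors and between 16931607 and 22349873 in the BI tumors, vehicle tumor 3 being the deepest library. The collagen chains took between 0.475% and 0.640% of all counts in the vehicle tumors and between 0.439% and 0.888% in the BI tumors.

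Every collagen chain carries a collagenous stretch in which glycine recurs every 3 residues, since only glycine fits inside the helix that the chains form around each other. Fibrillar chains are secreted as procollagens, mostly by fibroblasts, trimmed at their ends, packed into fibrils and cross-linked. Type IV collagen forms the sheet-like scaffold of basement membranes beneath epithelium and around blood vessels, and type VIII collagen forms networks in vessel walls and in remodeling tissue. FACIT collagens such as type XII decorate fibrils without forming fibrils of their own.

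The sequences below show how the classes differ in build, as 63 bases of coding sequence (GENCODE on mm9, 5′ to 3′, whole codons) with the glycine codons that keep to this step of 3 codons in capitals. The fibrillar chains Col1a1 and Col1a2 are shown from the middle of their longest uninterrupted run, where the capitals continue to the end. The network chains Col4a1, Col4a2 and Col8a1 and the FACIT chain Col12a1 are shown where their longest run stops, after 4 capitals.
Col1a1: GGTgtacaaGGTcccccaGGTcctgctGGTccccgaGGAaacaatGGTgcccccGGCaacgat
Col1a2: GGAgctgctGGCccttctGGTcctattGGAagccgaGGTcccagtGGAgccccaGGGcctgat
Col4a1: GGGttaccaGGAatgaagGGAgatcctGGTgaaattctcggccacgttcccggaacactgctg
Col4a2: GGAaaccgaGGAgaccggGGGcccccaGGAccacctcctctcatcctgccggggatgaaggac
Col8a1: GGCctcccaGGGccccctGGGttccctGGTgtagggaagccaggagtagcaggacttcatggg
Col12a1: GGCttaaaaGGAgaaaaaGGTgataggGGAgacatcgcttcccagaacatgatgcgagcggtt

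Counted over the longest coding sequence of each of the 44 chains, with a run defined as at least 5 glycine codons each 3 codons apart, the longest run held 338 triplets in Col1a1, 339 in Col1a2, 344 in Col3a1 and 337 in Col5a3. Col24a1 and Col27a1 had the shortest longest runs among the fibrillar chains, with 216 and 217 triplets, and no fibrillar chain had more than 3 runs. The longest run of Col4a1 held 40 triplets and its glycine codons fell into 22 runs, and Col4a2 had a longest run of 66 triplets and 24 runs. Col8a1 had 9 runs with a longest of 60 triplets. In Col12a1 the runs covered 8.12% of the codons, against 73.3% in Col1a1, since most of that FACIT chain lies outside the collagenous domain.

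Between treatment groups, the 3 abundant network and basement membrane chains were lower in the BI-treated tumors, and some of the abundant fibrillar and fibril-associated chains were higher. Col8a1, Col4a1 and Col4a2 fell, as did the minor fibrillar chain Col5a3 and the basement membrane chain Col18a1, whereas Col12a1, Col5a1 and Col1a2 rose. Expression was compared with edgeR's quasi-likelihood test on the counts, with Benjamini-Hochberg adjustment over all 13966 genes that passed a filter on low counts, and an adjusted p up to 0.05 counted as a change. Of the 44 chains, 34 passed the filter, 3 were called higher and 5 lower. Over all genes tested, 14.6% were called higher and 14.1% lower, and the 3 and 5 chains correspond to 8.82% and 14.7% of the chains tested. The 34 chains had a median log2 fold change of 0.12, against −0.0037 for all genes tested. The share called lower was near that of all genes and the share called higher was below it.

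**Figure D1:**
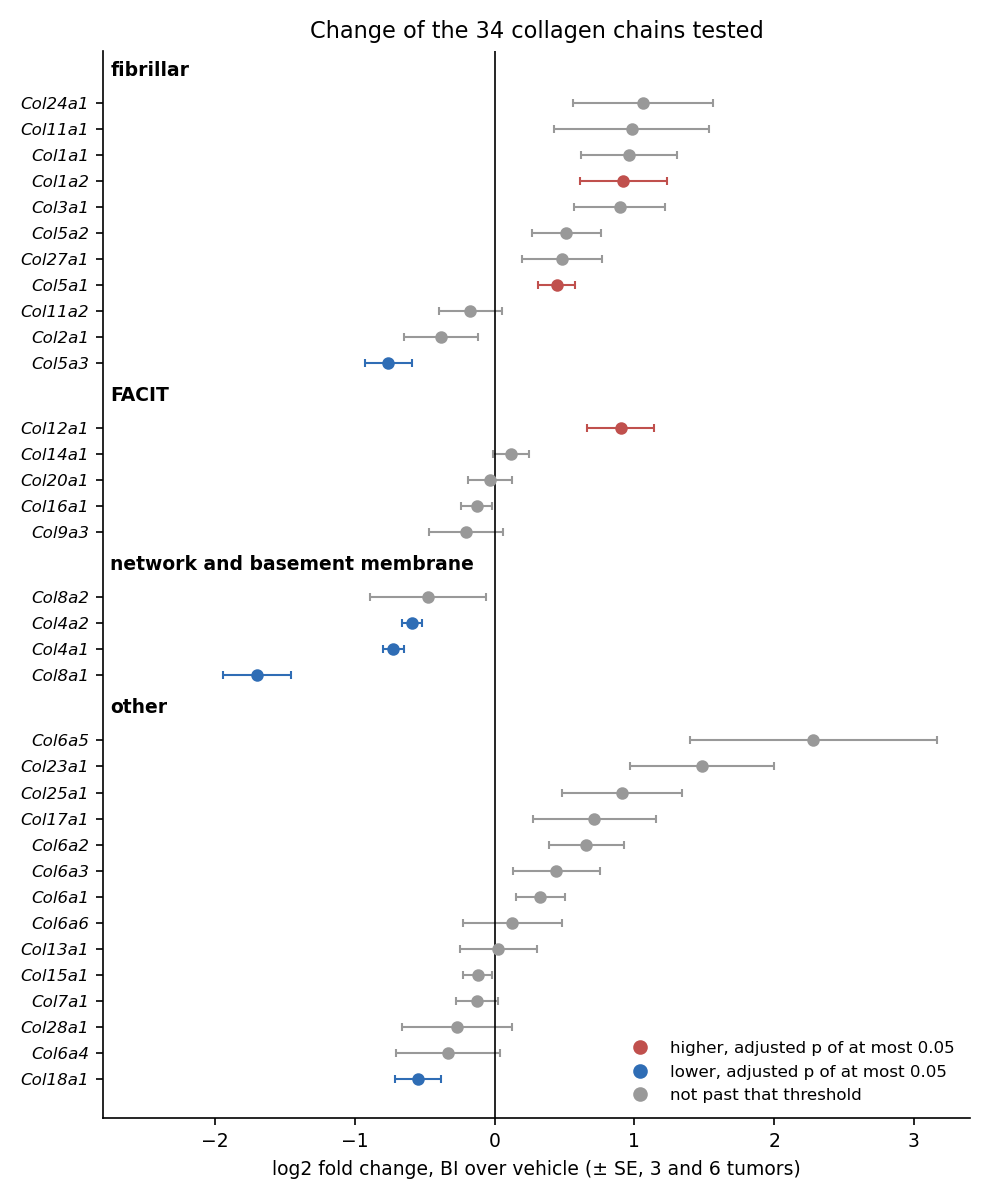
Log2 fold change of BI-treated over vehicle-treated tumors (x axis, with its standard error) for the 34 collagen chains that passed the filter on low counts, sorted within each class. The 4 network and basement membrane chains all lie below 0, 3 of them past the threshold (blue), and 8 of 11 fibrillar chains lie above 0, with Col1a2 and Col5a1 past the threshold (red) and Col5a3 far to the other side.

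With the study's cutoffs, an unadjusted p up to 0.05 together with a 1.5-fold change or more, 7 chains were higher and 4 lower, beside 9.57% of all genes higher and 3.57% lower. Groups that did not overlap at all, with every BI tumor below every vehicle tumor, were seen in 4 chains, Col4a1, Col4a2, Col8a1 and Col5a3, beside 14% of all genes. The opposite arrangement, every BI tumor above every vehicle tumor, was seen in 0 chains, beside 14.1% of all genes. The 3 rises thus came with overlapping groups and 4 of the 5 falls did not. The levels given next are counts scaled to the TMM-normalized library size (CPM) divided by the deposited gene length in kilobases, so that chains can be compared with each other.

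Among the network chains, Col4a1 (mm9 chromosome 8, 11198423 to 11312826, minus strand) encodes the α1 chain of type IV collagen and was the third most abundant chain in the vehicle tumors. Its level was 106, 103 and 105 CPM per kb in vehicle tumors 1, 2 and 3, and it ran from 55.9 over a median of 62.7 to 70.4 in the BI tumors. The vehicle tumors were nearly identical, and the highest BI tumor lay well below all of them. In edgeR's quasi-likelihood test, Col4a1 fell by 0.73 on the log2 scale (SE 0.08, adjusted p = 5.97e-05).

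Col4a2 (mm9 chromosome 8, 11312805 to 11449287, plus strand) encodes the α2 chain that assembles with the α1 chain, and lies head to head with Col4a1, the outermost exons sharing 22 bases on opposite strands. It measured 61.6, 60.5 and 61.4 CPM per kb in the vehicle tumors and from 37.0 over a median of 39.6 to 45.1 in the BI tumors. Again no BI tumor reached a vehicle tumor, and Col4a2 fell by 0.59 (log2, SE 0.07, edgeR adjusted p = 0.000151). Because the strand setting used in counting is not given in the sources used here, reads in the shared 22 bases cannot be assigned, a small part of the 6615 and 6426 bases of these genes. The same holds for the exon bases that chains share with other genes on the opposite strand, 43 in Col4a2, 109 in Col1a1, 99 and 113 in Col5a1 and 234 in Col9a3, and at most 18 in Col10a1, Col15a1 and Col22a1.

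Col8a1 (mm9 chromosome 16, 57624371 to 57754850, minus strand), the α1 chain of type VIII collagen, had the largest fall of any chain tested. Vehicle tumors 1, 2 and 3 measured 40.6, 35.6 and 41.6 CPM per kb, and the BI tumors ran from 5.27 over a median of 14.1 to 15.1. The groups were far apart, with BI tumors 5 and 4 the lowest, and the level in the vehicle tumors was 3.26 times that in the BI tumors. Col8a1 fell by 1.70 on the log2 scale (SE 0.24, edgeR adjusted p = 0.000426). The mean order of all chains moved with it, as Col8a1 ranked 8 of 44 in the vehicle tumors and 15 in the BI tumors.

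The partner chain Col8a2 was expressed at a far lower level, 0.116, 0.0930 and 0.143 CPM per kb in the vehicle tumors and a median of 0.0740 in the BI tumors, with between 3 and 21 counts per tumor. Its log2 fold change of −0.48 (SE 0.42, edgeR adjusted p = 0.417) did not pass the test. The other 5 chains of the class did not pass the filter. Col4a5 was the most frequent of them with 67 counts over the 9 tumors, whereas Col4a3, Col4a4, Col4a6 and Col10a1, the last a marker of hypertrophic cartilage, had at most 2 counts in any tumor. In these tumors the class therefore consisted almost entirely of Col4a1, Col4a2 and Col8a1, which together held at least 99.8% of its summed level in every tumor.

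**Figure D2:**
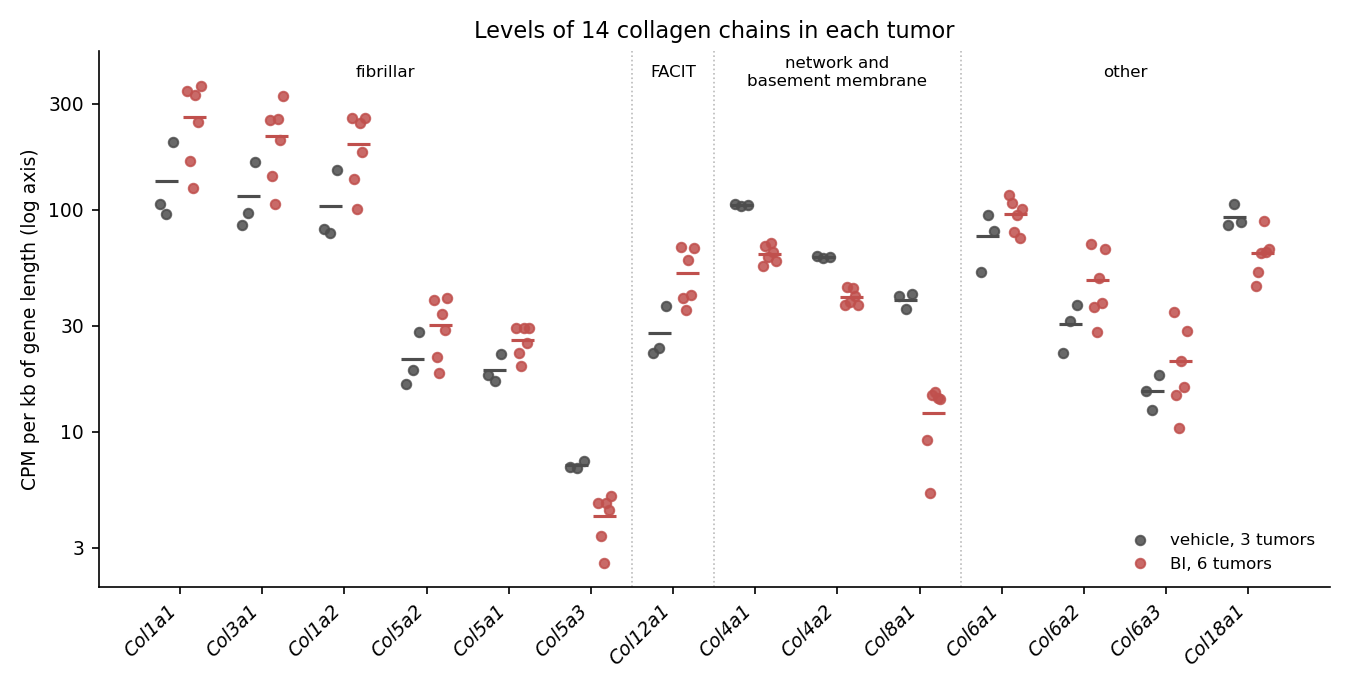
Level of 14 collagen chains in each tumor, in CPM per kb of gene length on a log axis. Each dot is a tumor and each bar a group mean, for 3 vehicle (gray) and 6 BI (red) tumors. The vehicle and BI dots of Col4a1, Col4a2, Col8a1 and Col5a3 do not overlap, while those of Col1a1, Col3a1, Col1a2 and Col12a1 do, with vehicle tumor 3 above BI tumor 6 in all 4 chains and above BI tumor 5 in the first 3.

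Among the fibrillar chains, the 3 major ones, Col1a1, Col3a1 and Col1a2, held between 86.0% and 92.5% of the summed level of the class. Col1a2 (mm9 chromosome 6, 4454814 to 4491543, plus strand) encodes the α2 chain of type I collagen, the principal collagen of stroma. It measured 82.3, 78.7 and 152 CPM per kb in the vehicle tumors and from 101 over a median of 214 to 259 in the BI tumors. Vehicle tumor 3 lay above BI tumors 5 and 6, and the other 4 BI tumors lay above all vehicle tumors. Col1a2 rose by 0.92 on the log2 scale (SE 0.31, edgeR adjusted p = 0.0437). When single tumors were left out, its log2 fold change ran from 0.75 to 1.29 and the call was lost in 6 of 9 fits.

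Col1a1 (mm9 chromosome 11, 94797538 to 94814356, plus strand), the α1 chain of the same collagen and the most abundant chain in both groups, measured 106, 95.7 and 201 CPM per kb in the vehicle tumors. The BI tumors ran from 126 over a median of 289 to 360.2. The order of the tumors was that of Col1a2, and the log2 fold change of 0.96 (SE 0.34) missed the threshold with an edgeR adjusted p of 0.0538. Col3a1 (mm9 chromosome 1, 45368383 to 45406551, plus strand), which encodes type III collagen and is laid down with type I, measured 85.3, 96.5 and 164 CPM per kb in the vehicle tumors and from 106 over a median of 229 to 324 in the BI tumors. It too had a log2 fold change, 0.89 (SE 0.32), that missed the threshold (edgeR adjusted p = 0.0570). Both results turned with the processing and with the tumors included. Col1a1 was called higher in 6 and Col3a1 in 5 of 17 alternative fits, among them those without vehicle tumor 3, BI tumor 5 or BI tumor 6. Without single tumors, the log2 fold change ran from 0.77 to 1.37 for Col1a1 and from 0.72 to 1.24 for Col3a1.

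Type V collagen is a minor component that helps to set the diameter of type I fibrils, and its 3 chains did not move together. Col5a1 (mm9 chromosome 2, 27741945 to 27895034, plus strand) measured 18.0, 16.8 and 22.3 CPM per kb in the vehicle tumors and from 19.8 over a median of 27.2 to 29.4 in the BI tumors, with BI tumor 6 alone below vehicle tumor 3. It rose by 0.44 on the log2 scale (SE 0.13, edgeR adjusted p = 0.0283). Col5a2 (mm9 chromosome 1, 45431166 to 45560127, minus strand) measured 16.4, 19.04 and 28.2 CPM per kb in the vehicle tumors and from 18.3 over a median of 31.3 to 39.8 in the BI tumors. The groups overlapped and its log2 fold change of 0.51 (SE 0.25, edgeR adjusted p = 0.141) did not pass the test.

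Col5a3 (mm9 chromosome 9, 20574494 to 20619511, minus strand), the third chain of type V collagen, went the other way. It measured 6.91, 6.88 and 7.40 CPM per kb in the vehicle tumors and from 2.56 over a median of 4.596 to 5.12 in the BI tumors. Every BI tumor lay below every vehicle tumor, with BI tumor 6 the lowest. Col5a3 fell by 0.76 on the log2 scale (SE 0.17, edgeR adjusted p = 0.00655).

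The other 5 fibrillar chains were present at traces. Col27a1 and Col24a1, both of them divergent fibrillar chains, had mean levels of 0.617 and 0.177 CPM per kb in the vehicle tumors, and Col11a1, Col11a2 and Col2a1, the chains of cartilage fibrils, had 0.0743, 0.467 and 0.299. Their log2 fold changes ran from −0.38 for Col2a1 to 1.06 for Col24a1, and they did not pass edgeR's quasi-likelihood test. Of the 11 fibrillar chains, 2 were called higher (18.2%) and 1 lower (9.09%), beside 14.6% and 14.1% of all genes tested, and the median log2 fold change was 0.51 beside −0.0037.

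Of the FACIT chains, Col12a1 (mm9 chromosome 9, 79446798 to 79566638, minus strand), which encodes the long type XII chain that bridges fibrils, had the highest mean level in both groups and rose. It measured 22.6, 23.8 and 36.9 CPM per kb in the vehicle tumors and from 35.2 over a median of 50.3 to 68.2 in the BI tumors. BI tumor 6 alone lay below vehicle tumor 3, and the log2 fold change was 0.90 (SE 0.24, edgeR adjusted p = 0.0150). Col16a1 measured 22.7, 23.9 and 18.1 CPM per kb in the vehicle tumors, level with Col12a1 in vehicle tumors 1 and 2, and had a median of 19.1 in the BI tumors (log2 fold change −0.13, SE 0.11, edgeR adjusted p = 0.403). Col14a1, Col20a1 and Col9a3 did not pass the test either, with log2 fold changes of 0.12, −0.033 and −0.20. Col9a1, Col9a2, Col19a1 and Col22a1 did not pass the filter and had at most 7 counts in any tumor. The median over the 5 tested FACIT chains was −0.033.

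Among the 15 other chains, Col18a1 (mm9 chromosome 10, 76514923 to 76629293, minus strand) was the one called. It encodes type XVIII collagen, a heparan sulfate proteoglycan of basement membranes whose C-terminal fragment is endostatin. It measured 84.9, 106 and 87.7 CPM per kb in the vehicle tumors and from 45.3 over a median of 64.2 to 88.7 in the BI tumors. BI tumor 7 lay above vehicle tumors 1 and 3, and the other 5 BI tumors lay below all vehicle tumors. Col18a1 fell by 0.55 on the log2 scale (SE 0.16, edgeR adjusted p = 0.0267). Its relative Col15a1, also of the basement membrane zone, had 10.5, 10.3 and 11.8 CPM per kb in the vehicle tumors, a median of 9.83 in the BI tumors and a log2 fold change of −0.12 (SE 0.10, edgeR adjusted p = 0.405).

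Type VI collagen forms beaded microfilaments from 3 main chains. Col6a1 (mm9 chromosome 10, 76171537 to 76188913, minus strand) was the most abundant, with 52.6, 94.9 and 80.4 CPM per kb in the vehicle tumors and from 74.4 over a median of 97.3 to 116 in the BI tumors. Col6a2 (mm9 chromosome 10, 76058507 to 76086375, minus strand) measured 22.7, 31.6 and 37.1 CPM per kb in the vehicle tumors and from 28.1 over a median of 43.6 to 69.8 in the BI tumors. Col6a3 (mm9 chromosome 1, 92663435 to 92740529, minus strand) measured 15.2, 12.6 and 18.1 CPM per kb in the vehicle tumors and from 10.4 over a median of 18.4 to 34.4 in the BI tumors. The groups overlapped in all 3 chains, which did not pass edgeR's test, with log2 fold changes of 0.33 (SE 0.18, adjusted p = 0.189), 0.65 (SE 0.27, adjusted p = 0.0881) and 0.44 (SE 0.31, adjusted p = 0.313). Without single tumors, these values ran from 0.12 to 0.52 for Col6a1 and from 0.24 to 0.58 for Col6a3. For Col6a2 they ran from 0.48 to 0.82. Col6a2 was called higher in 2 of 17 alternative fits, Col6a1 and Col6a3 in 0.

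The α4 to α6 chains of type VI collagen, which can stand in for Col6a3, were present at traces. Col6a5 had the highest log2 fold change of all chains, 2.28, with an SE of 0.89 and an edgeR adjusted p of 0.0732 that missed the threshold. Its counts ran from 6 to 182 per tumor, and BI tumor 5 alone held 1.02 CPM per kb where the vehicle tumors had 0.0394, 0.0289 and 0.105. Without BI tumor 5 the log2 fold change of Col6a5 was 1.35, below the 1.60 of Col23a1 in the same fit. The transmembrane chain Col23a1 lay just outside the threshold, with levels of 0.202, 0.0869 and 0.224 CPM per kb in the vehicle tumors, a median of 0.474 in the BI tumors and a log2 fold change of 1.48 (SE 0.52, edgeR adjusted p = 0.0501). Col7a1, the anchoring fibril chain beneath stratified epithelium, measured 33.6, 39.9 and 25.9 CPM per kb in the vehicle tumors and had a median of 30.3 in the BI tumors (log2 fold change −0.13, SE 0.15, edgeR adjusted p = 0.556). The remaining tested chains, Col6a4, Col6a6, Col13a1, Col17a1, Col25a1 and Col28a1, had mean levels of at most 0.331 CPM per kb in either group and did not pass the test, and Col26a1, with 6 counts in all, was not tested.

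Summed over its chains, the network and basement membrane class measured 208, 199.7 and 208 CPM per kb in the vehicle tumors and from 103 over a median of 117 to 130.0 in the BI tumors. All 6 BI tumors lay below all vehicle tumors, with group means of 205 ± 4.71 (SD, n = 3) and 116 ± 9.36 (SD, n = 6). The fibrillar class measured 317, 315 and 576 CPM per kb in the vehicle tumors and from 374 over a median of 799 to 1020.0 in the BI tumors. Here 4 of 6 BI tumors lay above all vehicle tumors, and the spread within each group was wide, with means of 403 ± 150.4 (SD, n = 3) and 736 ± 259 (SD, n = 6). These sums over a class carry no test.

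The FACIT class had means of 53.8 ± 5.39 and 76.1 ± 13.7 CPM per kb, and the same sum without Col12a1 gave a log2 ratio of −0.10 of BI over vehicle. The other chains summed to 259.95 ± 37.9 and 269.8 ± 42.7 CPM per kb. Fibrillar chains held 42.8% ± 8.23 of the summed collagen level in the vehicle tumors and 60.0% ± 7.20 in the BI tumors, and network and basement membrane chains 22.7% ± 3.71 and 10.3% ± 3.12 (SD, n = 3 and 6). Without Col1a1, Col1a2 and Col3a1, the difference in the fibrillar share was 3.18 percentage points in place of 17.2, and that in the share of the other chains turned from −5.42 to 5.67. The ratio of the fibrillar to the network sum was 1.52, 1.58 and 2.77 in the vehicle tumors and ran from 3.28 over a median of 6.38 to 9.27 in the BI tumors. Every BI tumor, BI tumor 6 with its low fibrillar level included, thus had a higher ratio than every vehicle tumor.

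**Figure D3:**
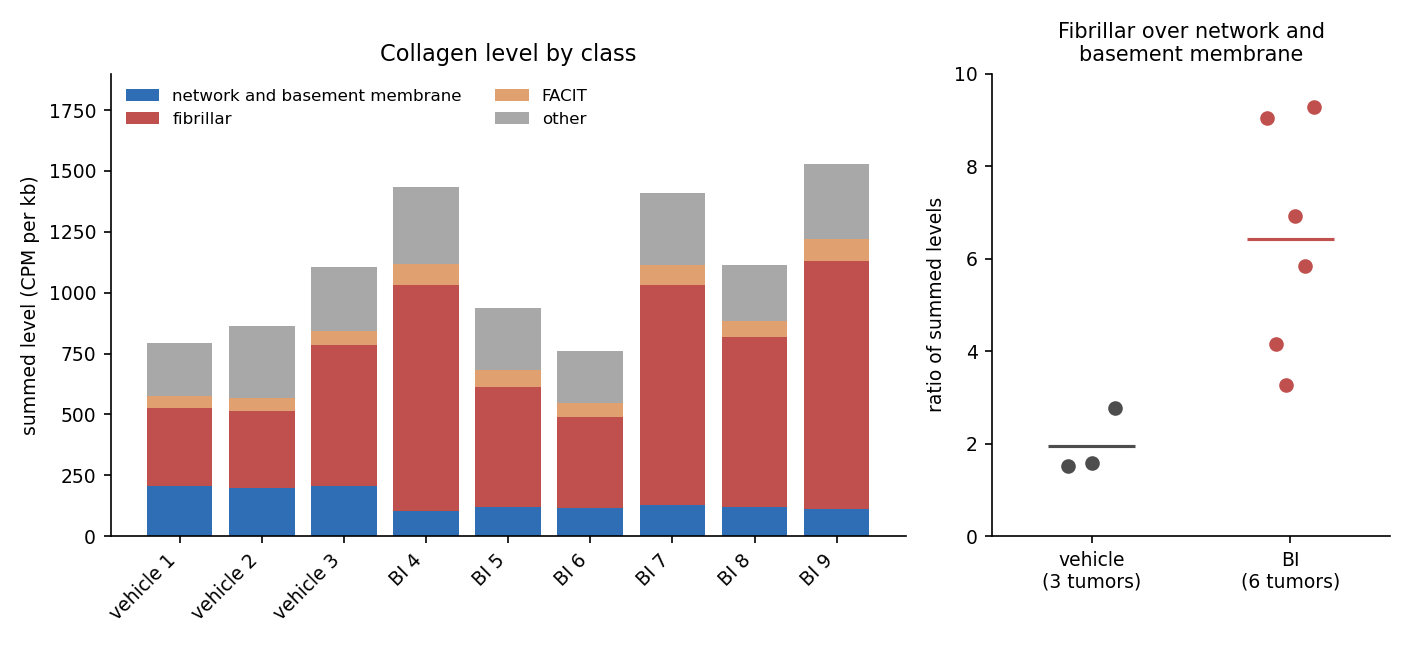
Left, summed level of the collagen chains in each of the 9 tumors (y axis, CPM per kb), stacked by class from 0. Right, the fibrillar sum divided by the network and basement membrane sum, a dot per tumor and a bar for the group mean. The blue base of the columns lies between 199.7 and 208 in the vehicle tumors and between 103 and 130.0 in the BI tumors, and the ratio reaches at most 2.77 in vehicle tumors and at least 3.28 in BI tumors.

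Several abundant chains ranked the tumors in much the same way. In Col1a1, Col1a2, Col3a1, Col5a1, Col5a2, Col12a1, Col6a2 and Col6a3, vehicle tumor 3 was the highest of its group, BI tumor 6 was the lowest BI tumor and BI tumor 5 the next, and BI tumors 4, 7 and 9 were the highest. Col6a1 differed, with vehicle tumor 2 as the highest of its group and BI tumor 8 as the lowest BI tumor, and so did Col16a1, with vehicle tumor 3 as the lowest of its group, BI tumor 5 as the highest BI tumor and BI tumor 4 as the lowest. Col4a1 had an SD of 1.07 around 105 CPM per kb in the vehicle tumors, while Col8a1 ran from 5.27 to 15.1 CPM per kb in the BI tumors.

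Ratios between chains that assemble together or lie together in fibrils were compared for the 7 pairs with at least 10 counts in every tumor, with a two-sided exact permutation test that used each of the 84 ways to split the tumors into 3 and 6. The ratio of Col1a1 to Col1a2 was 1.29, 1.21 and 1.33 in the vehicle tumors and ran from 1.20 over a median of 1.33 to 1.39 in the BI tumors, while the level of Col1a1 ran from 95.7 to 360.2 CPM per kb over the same tumors. The difference in log2 ratio was 0.037 (exact permutation p = 0.524, adjusted over 7 ratios 0.861). The ratio of Col4a1 to Col4a2 was 1.71, 1.71 and 1.71 in the vehicle tumors and ran from 1.496 over a median of 1.58 to 1.59 in the BI tumors.

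For the type IV pair, then, all 6 BI tumors lay below all vehicle tumors, with a log2 difference of −0.13. The exact permutation p was 0.0238, the smallest that 3 against 6 tumors can give, and 0.167 after adjustment over the 7 ratios. With this number of tumors and ratios, a single ratio could not pass the adjusted threshold however far apart the groups lay. The ratios of Col3a1 to Col1a1, Col5a1 to Col5a2, Col6a1 to Col6a2, Col6a3 to Col6a1 and Col12a1 to Col1a1 overlapped between the groups, with log2 differences between −0.26 and −0.011 and adjusted exact permutation p values of 0.861 or 0.905.

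The stretch before the start of transcription was examined for the chains with an entry among RefSeq promoters, 35 of the 44. Shown here are the 100 bases before the start of Col8a1 and Col5a3, a pair of chains that were lower in every BI tumor than in any vehicle tumor, matched to mm9 and lying outside annotated exons, with the GC box GGGCGG or its reverse complement CCGCCC in capitals.
Col8a1 (chr16:57754851-57754950, minus strand): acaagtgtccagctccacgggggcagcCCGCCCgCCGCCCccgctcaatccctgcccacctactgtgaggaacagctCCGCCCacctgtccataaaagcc
Col5a3 (chr9:20619512-20619611, minus strand): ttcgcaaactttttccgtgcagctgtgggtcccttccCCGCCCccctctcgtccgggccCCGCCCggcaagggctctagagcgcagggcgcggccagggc

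In the 250 bases before the start, searched on both strands, GGGCGG was found in 21 of the 35 chains (60.0%), among them Col8a1, Col5a3, Col4a2 and Col18a1 of the 5 that fell and Col1a2 and Col5a1 of the 2 risen chains with an entry. The share over all 27025 genes of the table was 35.4%. CCAAT was found in 13 chains (37.1%) against 37.5% of all genes, and TATAAA in 5 chains (14.3%) against 14.3%. GGAATG, searched likewise, was found in 4 chains (11.4%) against 14.4% of all genes. These matches describe the letters only, and the searched motifs do not separate the chains that rose from those that fell.

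Collagen is made, bound and broken down by other proteins, and these lists held changes in both directions. The counts for each list stand beside 14.6% of all genes tested called higher and 14.1% called lower. Of 29 tested genes for collagen modification and processing, 2 rose and 6 fell. Plod2, the lysyl hydroxylase of the telopeptides where cross-links form, measured 180.3, 205 and 200.3 CPM in the vehicle tumors and from 96.3 to 112 CPM in the BI tumors, without overlap, and it fell by 0.90 on the log2 scale (SE 0.06). Pcolce, an enhancer of procollagen cleavage, fell by 0.63 (SE 0.09), and its relative Pcolce2 fell by 0.98 (SE 0.21). Adamts2, which removes the amino-terminal propeptide of fibrillar procollagens, rose by 0.79 (SE 0.19) and Loxl1, a cross-linking oxidase, by 0.65 (SE 0.19).

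Of the small leucine-rich proteoglycans that coat fibrils, 10 were tested, 2 rose and 2 fell. Podn rose by 1.16 (SE 0.22) and Prelp by 0.65 (SE 0.20) on the log2 scale, while Podnl1 fell by 0.61 (SE 0.07) and Ogn fell by 0.98 (SE 0.26). The list had a median log2 fold change of 0.61, and its most abundant gene was Bgn. Of 15 tested partners of type IV collagen in basement membranes, Lama4, a laminin chain of vessels, rose by 0.36 (SE 0.12), and Pxdn, the peroxidase that cross-links type IV collagen, fell by 0.24 (SE 0.06). The summed level of this list overlapped between the groups, from 6044 to 6307 CPM in the vehicle tumors and from 5136 to 6396 CPM in the BI tumors.

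**Figure D4:**
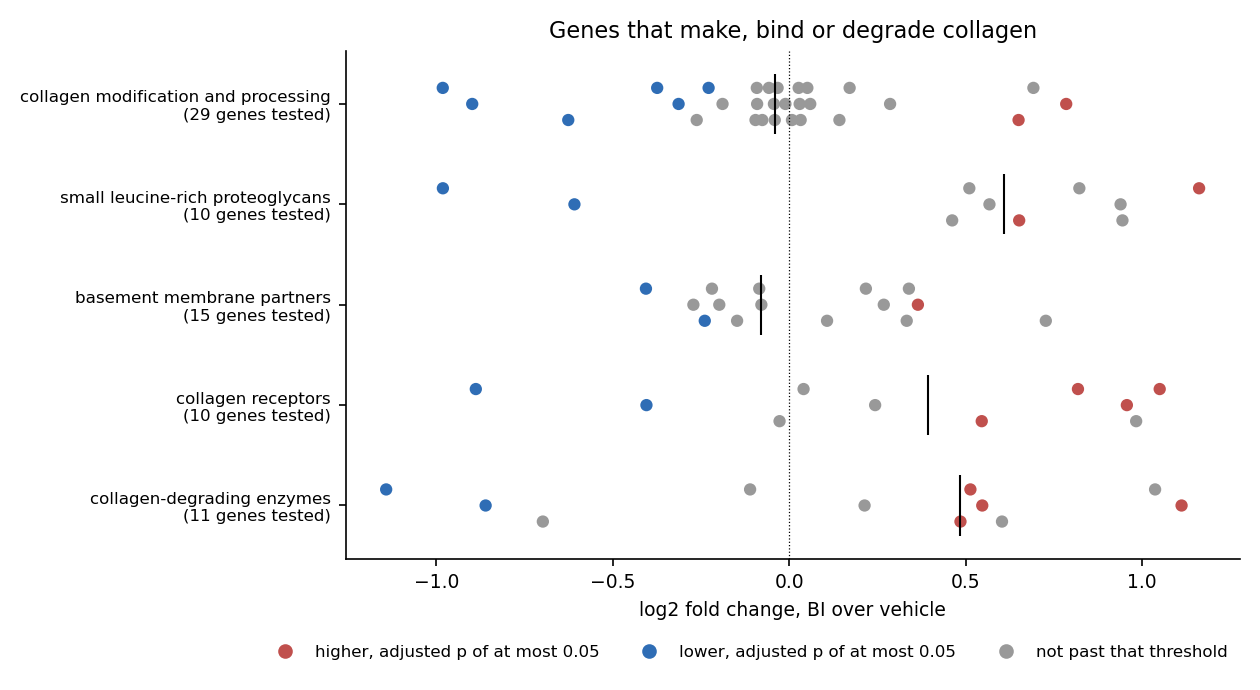
Log2 fold change of BI-treated over vehicle-treated tumors (x axis) for the tested genes of 5 lists around collagen, a dot per gene and a vertical bar at each list's median. Each list holds genes past the threshold in both directions, and the medians run from −0.079 for basement membrane partners to 0.61 for the small leucine-rich proteoglycans.

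Of 10 tested collagen receptors, 4 rose and 2 fell, beside 14.6% and 14.1% of all genes. Lair1, an inhibitory collagen receptor of leukocytes, rose by 0.96 (SE 0.11), Itga10, an integrin subunit that binds collagen, by 1.05 (SE 0.12), and Mrc2, the endocytic receptor that takes up collagen fragments, by 0.55 (SE 0.13). Itga2, the α subunit of the collagen-binding integrin α2β1, fell by 0.89 (SE 0.16), and the receptor kinase Ddr2 fell by 0.40 (SE 0.08). Of 11 collagen-degrading enzymes, 4 rose and 2 fell, beside the same shares. The membrane-bound Mmp14 rose by 0.55 (SE 0.09), the lysosomal protease Ctsb by 0.51 (SE 0.13) and the gelatinase Mmp2 by 1.11 (SE 0.29). Mmp13, a collagenase, fell by 0.86 (SE 0.21), and the stromelysin Mmp3 fell by 1.14 (SE 0.29).

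Marker genes of the cells that could hold these transcripts also differed between the groups, and their counts stand beside 14.6% of all genes called higher and 14.1% called lower. Of 12 fibroblast markers, Pi16, Fbln1 and Thy1 rose. The sum of the list was 815, 983 and 1174 CPM in the vehicle tumors. In the BI tumors it ran from 1241 over a median of 1515 to 1739, without overlap. Much of this sum was Pdgfra, the most abundant marker, with 824 and 662 CPM in BI tumors 5 and 6. Pdgfra itself overlapped between the groups and was not called (log2 fold change 0.47, edgeR adjusted p = 0.170). Among the single markers Pi16 alone had no overlap, and log2 fold changes ran from −0.20 for Pdpn to 1.59 for Pi16. Of 10 endothelial markers, Kdr, Tie1, Cdh5 and Cldn5 rose, and the sum was 214, 241 and 214 CPM in the vehicle tumors and from 239 over a median of 288 to 339 in the BI tumors, Pecam1 being the most abundant. In 10 markers of smooth muscle and pericytes, Acta2 rose, and the sums overlapped, from 170.4 to 202 and from 192 to 239.9 CPM, Notch3 being the most abundant. The endothelial sums overlapped too, with BI tumor 6 below vehicle tumor 2. The part of these cell types in the collagen results, the fall of the type IV chains included, was not tested.

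Of 8 epithelial markers, Krt18 and Krt8 were abundant in every tumor and fell, with log2 fold changes of −0.50 and −0.28. The others were far lower and were not called, with log2 fold changes from −0.85 for Krt14 to 1.06 for Epcam. The median over the list was −0.031. Its sum, made up mostly of Krt18 and Krt8, was 1123, 1186 and 962 CPM in the vehicle tumors. In the BI tumors the sum ran from 757 over a median of 813 to 964, Krt18 being the most abundant gene. Of 8 macrophage markers 7 rose, and the sum was 2940.1, 3356 and 2601 CPM in the vehicle tumors and from 4357 over a median of 4998 to 5980.3 in the BI tumors, Lyz2 being the most abundant. Of 8 mast cell markers 6 rose and Hdc fell, with sums of 81.3, 74.8 and 63.5 CPM and from 73.7 over a median of 167 to 393 CPM, and Tpsb2 as the most abundant.

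Markers of other tissues were measured as well. The 10 skeletal muscle markers summed to 6.65, 7.65 and 21.3 CPM in the vehicle tumors and to between 5.37 and 16.3 CPM in the BI tumors, with Tnnt3 as the most abundant, and of the 9 adipocyte markers Pparg rose, with sums of 118, 73.7 and 119 CPM and from 110.2 to 460.5 CPM and Fabp4 as the most abundant. Of 8 cartilage and bone markers, Ibsp and Matn3 rose, Sox9 was the most abundant, and Acan, Hapln1, Bglap and Sp7 had at most 3 counts in every tumor. Of 6 Schwann cell markers, Prx and Pmp22 fell, the latter being the most abundant, and the sums were 119, 105 and 106 CPM and from 83.9 to 101 CPM. Of the 7 skin keratinocyte markers with a gene in the counts, Krt10 was the most abundant and fell, with 2.61, 3.22 and 11.55 CPM in the vehicle tumors and from 0.945 to 2.95 CPM in the BI tumors. The sums of the list were 3.35, 4.88 and 21.1 CPM and from 1.56 to 5.26 CPM, so that vehicle tumor 3 stood apart. Vehicle tumor 3, the highest vehicle tumor for skeletal muscle and skin markers, was also the highest for the fibrillar chains Col1a1, Col1a2 and Col3a1. Whether these cell types had a part in the collagen results was not tested.

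Some calls depended on single tumors. Col4a1, Col4a2, Col8a1 and Col5a3 were called lower without any one of the 9 tumors, with adjusted p values of at most 0.0329 (edgeR). The call for Col18a1 was lost without vehicle tumor 2 (edgeR adjusted p = 0.119) or vehicle tumor 3 (0.0601), with log2 fold changes of −0.44 and −0.59 beside −0.55 with all tumors. Col12a1, Col5a1 and Col1a2 all lost their calls without vehicle tumor 1 (edgeR adjusted p = 0.0747, 0.106 and 0.161) and without vehicle tumor 2 (0.0665, 0.120 and 0.159), while 9 chains were called higher without BI tumor 6. In these fits without vehicle tumor 1 or 2 the log2 fold change was 0.77 and 0.80 for Col12a1, 0.40 and 0.36 for Col5a1 and 0.77 and 0.75 for Col1a2, somewhat below the values with all tumors. Col1a2 also lost its call without BI tumor 4, 7, 8 or 9, and Col5a1 without BI tumor 7.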

How the data were processed

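RNA of 9 4T1 tumors was sequenced by the authors with a stranded protocol. The authors aligned the reads with STAR to mm9, keeping single alignments, and used QuasR to count, per RefSeq gene, reads starting in its exons. The authors deposited unnormalized counts of 18755 genes with the gene lengths. Depth is given with the samples, and 3 counts, taken as the floor, equal 0.0886 to 0.177 CPM depending on the tumor, which covers counting error only. The authors analysed only tumors with RNA of sufficient quality, and no batch is labelled.

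RefSeq gave a symbol for 18700 Entrez identifiers, and positions came from GENCODE on mm9. BI was tested against vehicle with edgeR 4.0.16 in R 4.3.3 (TMM, filterByExpr with a minimum count of 10 and total of 15, quasi-likelihood F test, no covariates, all 9 tumors). Levels per kilobase used the deposited lengths. On data simulated from these counts with changes of 1.5-fold or more, 168 of 198 changed and 13 unchanged genes of 13930 were called. Smaller changes, such as that of Col5a1, were not simulated. Alternatives were RLE or library size, no filter or at least 1 CPM in at least 3 tumors, the likelihood ratio test, DESeq2 1.42.0, limma-voom 3.58.1, thinned counts, other call rules, other class sums and leaving out each tumor.

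The collagen chains and all lists were chosen with earlier results of these data known. The chains given per tumor were the most abundant and up to 5 called ones of each class and those in ratios. Col8a2, Col16a1, Col15a1 and Col7a1 were given as well, outside that selection. Of the pathway lists, the 3 called genes with the smallest p per direction are named, and of the marker lists the most abundant gene and those at the floor. A list gene that this rule would name is not reported here. The called markers, markers at the ends of a range of fold changes, and chains near the threshold were named after their values were seen. Glycine codons replaced the planned protein features.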

Additional observations from a re-analysis of the deposited data

Results flagged for a closer look

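In 61 groups of tumors tested with Dixon's criterion, where chance marks about 1 in 20, 3 tumors lay far from the rest of their group. Col11a1 in BI tumor 7 measured 0.346 CPM per kb, against between 0.0645 and 0.165 in the other BI tumors. Col6a5 in BI tumor 5 measured 1.02 CPM per kb, against between 0.0435 and 0.295 in the other BI tumors. The summed level of the adipocyte markers in BI tumor 9 was 460.5 CPM, against between 110.2 and 229 CPM in the other BI tumors.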

How the results depend on the processing

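Col4a1, Col4a2, Col8a1 and Col5a3 were called lower under all 17 alternative fits, and 5 chains in all were called lower except without vehicle tumor 2 or 3 and under both rules with a fold limit of 1.5, where Col18a1 was lost and 4 remained. The number called higher, 3, became 6 without a filter, 8 with the likelihood ratio test, 5 with DESeq2 and 7 with the unadjusted p and fold limit, and ran from 0 to 9 when single tumors were left out. At 0, without vehicle tumor 1 or 2, edgeR still gave 5 and 3 chains an unadjusted p of at most 0.05. Fibrillar chains called higher, 2, became 4 without a filter or with the likelihood ratio test and 1 with the adjusted p and fold limit, and ran from 0 to 6 when single tumors were left out, FACIT chains from 0 to 1. Other chains called higher, 0 with edgeR against 3 at an unadjusted p of at most 0.05, became 1 without a filter, with the 1 CPM filter or in thinned counts, 3 with the likelihood ratio test or the unadjusted p and fold limit and 2 with DESeq2, and ran from 0 to 2 when single tumors were left out. Other chains called lower, 1, became 0 under both fold limits and ran from 0 to 1.

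Without the most abundant chain of each class, the log2 ratio of BI over vehicle of the summed level was −0.10 for FACIT and −0.93 for network and basement membrane chains, from 0.50 and −0.82. The difference in share was 3.18 percentage points for fibrillar, 4.98 for FACIT and 5.67 for other chains without Col1a1, Col1a2 and Col3a1, from 17.2, 0.62 and −5.42, and 2.26 for FACIT chains without division by length. Leaving out single tumors moved the log2 difference of the ratio from −0.16 to 0.057 for Col12a1 to Col1a1, from −0.14 to 0.021 for Col3a1 to Col1a1, from −0.16 to 0.075 for Col5a1 to Col5a2 and from −0.33 to 0.24 for Col6a3 to Col6a1. The log2 fold change of Col7a1 ran from −0.28 to 0.027. The causes were not tested. No paired analysis was possible because the labels give the groups no shared replicate numbers. Of the 10 chains not tested, 7 had at most 3 counts in every tumor, and changes in them were not detectable at this depth.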
